A study of Mus musculus with 42 samples.

Results

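Livers of 28 vehicle-treated male mice were used to ask which hepatic genes answered a high fat diet differently when ChemR23 was missing. ChemR23, the product of Cmklr1, is a G protein-coupled receptor for the adipokine chemerin and for the lipid mediator resolvin E1. The members are therefore 4 groups of 7 mice, 28 of the 42 mice sequenced, and none of them received resolvin E1. WT lean mice were wild type littermates fed a control diet with 10% of its energy from fat. WT obese mice were wild type littermates fed a diet with 60% of its energy from fat. KO lean and KO obese mice had lost ChemR23 by CRISPR/Cas9 editing, of which the exact change is not given in the sources used here, and received the same pair of diets. All mice were on a C57BL/6J background, went onto their diet at 6 weeks of age for 15 weeks, were given vehicle on 4 days, and were sacrificed on day 5 after at least 4 hours of fasting. All 4 groups share the vehicle injections and the fasting.

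For each gene the diet effect in KO mice (KO obese minus KO lean) was set against the diet effect in WT mice (WT obese minus WT lean). Their difference, KO less WT, is called the diet by genotype difference below. It is positive where the gene went further up, or less far down, with the diet in KO mice. Values are normalized counts, that is, counted read pairs divided by a library's size factor, and effects are differences of means of log2(normalized count + 1). The WT and KO diet tables were normalized separately, so a level in a WT group set beside a level in a KO group is a description, while each diet effect was formed inside its own table. Of 14964 genes listed in both tables, 13924 had a mean normalized count of at least 5 in each and were tested with limma over all 28 mice. A gene was called at a Benjamini-Hochberg (BH) adjusted p under 0.1.

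Whole liver is mostly hepatocyte RNA with smaller shares from Kupffer cells (the resident macrophages), lymphocytes, sinusoidal endothelial cells, stellate cells and bile duct cells. Ribosome biogenesis, the making of ribosomes in the nucleolus, and the mitochondrial respiratory chain are large gene programs that follow nutrient and growth signals. ChemR23 is known mainly from macrophages, dendritic cells and natural killer cells, so cell type markers are given beside the pathways.

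The libraries held 15987004 to 43816949 reads on listed genes, with a median of 23651834. Cmklr1, the targeted gene (chromosome 5, 113612354 to 113650426, minus strand, GRCm38), had a lowest, median and highest normalized count of 39.2, 59.6 and 110 in WT lean against 30.1, 46.8 and 92.7 in WT obese mice. In KO lean mice it had 10.7, 11.7 and 24.9 and in KO obese mice 5.29, 14.7 and 23.8, so every KO mouse lay below every WT mouse and reads were still counted. The diet by genotype difference of Cmklr1 itself was 0.19 (SE 0.40, adjusted p = 0.850 in limma). Wscd2, named beside Cmklr1 as its neighbour, is listed in the KO diet table and not in the WT diet table, and was not tested for the difference. Nothing in the labels says whether the number that opens a mouse identifier marks a litter or a cage. Among the 28 mice used, each such number occurs in 1 group only.

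The diet by genotype difference was called for 1 of 13924 genes (0.00718%) by limma, and that gene was Vwa1. An unadjusted p under 0.05 was reached by 1255 genes with a positive difference (9.01%) and 1298 with a negative one (9.32%), and these percentages are the background against which the gene lists below are read. An adjusted p under 0.15 was held by 702 genes and one under 0.2 by 1612, counts that include Vwa1 and are a description. Over all genes the SD of the difference was 0.43 on the log2 scale and its median SE was 0.24.

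The count depended on which mice entered the fit and on the method. With each mouse left out in turn, 16 of 28 fits called 0 genes and 10 called 1 to 20 genes. Without KO lean mouse 20R, 1848 genes were called, 928 positive (6.66%) and 920 negative (6.61%), and without WT obese mouse 22L, 963 were called. Those 2 mice were picked out by this very count, so the larger numbers are a description. With the number opening the mouse identifier as a random block, limma called 0 genes, 1107 genes had an unadjusted p under 0.05, and the smallest adjusted p was 0.603. DESeq2 on the recovered reads called 926 genes (385 positive), with 4050 of 13924 genes given no adjusted p, and edgeR called 1. With library quality weights limma called 2563 genes over all 28 mice.

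**Figure D1:**
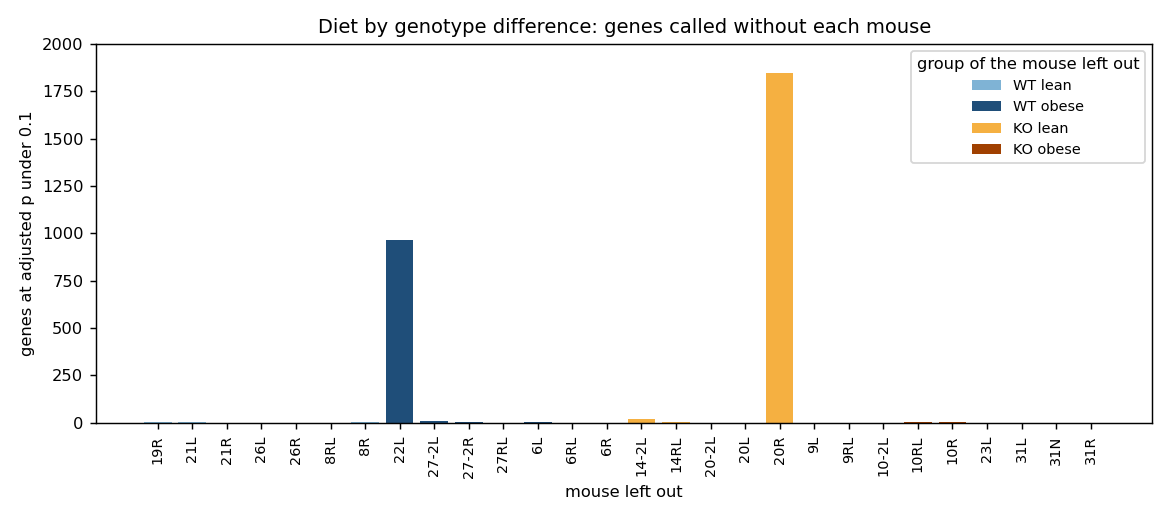
Number of genes called for the diet by genotype difference (vertical axis, adjusted p under 0.1 in limma) when each of the 28 mice was left out (horizontal axis, coloured by group). The bar for KO lean mouse 20R reaches 1848 and that for WT obese mouse 22L reaches 963, while the other 26 bars lie between 0 and 20.

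Vwa1 encodes an extracellular matrix protein with a von Willebrand factor A domain. Its GRCm38 coordinates are chromosome 4, 155768149 to 155774698, minus strand. Its lowest, median and highest normalized counts were 10.5, 12.8 and 16.0 in WT lean against 23.0, 38.0 and 60.0 in WT obese mice, and 25.2, 33.2 and 48.3 in KO lean against 19.3, 33.5 and 42.0 in KO obese mice. No WT lean mouse reached the lowest value of any other group, and the other 3 groups overlapped. Vwa1 rose by 1.47 on the log2 scale with the diet in WT mice (adjusted p = 0.000217 in limma), and in KO mice its diet effect was -0.19 (adjusted p = 0.576). The difference was -1.65 (SE 0.30, adjusted p = 0.0803 in limma). Over the other settings it lay between -1.76 and -1.40 and its adjusted p between 0.00422 and 0.603, and with a single mouse left out it was called in 12 of 28 fits.

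More genes were called for the diet effect in KO than in WT mice, which compares counts and is no test of the difference. Over all genes the SD of the diet effect was 0.39 in WT and 0.45 in KO mice. In WT mice 603 genes rose (4.33%) and 479 fell (3.44%), and in KO mice 1874 rose (13.5%) and 1851 fell (13.3%), all at an adjusted p under 0.1 in the same limma fit. Genes called in both genotypes numbered 543, which is 50.2% of those called in WT and 14.6% of those called in KO mice, and 537 of the 543 moved the same way. Of the 3182 genes called in KO mice alone, 1535 also had an unadjusted p under 0.05 for the difference, and so did 213 of the 539 called in WT mice alone. Only Vwa1 was called for the difference itself at an adjusted p under 0.1. For all other genes the diet effects were not shown to differ. Genes called in 1 genotype alone were picked on effects that form the difference, so these counts are a description. With reads scaled to equal totals the balance of directions moved, to 2661 of 3328 called genes higher in KO mice and to 1448 of 2006 genes positive for the difference at an unadjusted p under 0.05, and the median difference of all genes moved from -0.01 to 0.08.

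Among the 1255 genes with a positive difference at an unadjusted p under 0.05, 811 had a diet effect at that level in KO mice only, 214 in WT mice only and 43 in both with opposite signs. A further 16 had effects of the same sign in both and 171 had one in neither. Of the 1298 genes with a negative difference, the same classes held 831, 244, 39, 24 and 160. The fitted diet effects had opposite signs in 1019 of the 1255 and in 994 of the 1298. The genes were chosen by the difference between those same effects, a choice that itself favours opposite signs. The share of all genes with opposite signs is not given, so these counts are a description and no evidence of a reversed diet response. In both directions the class with a diet effect in KO mice only was thus the most numerous. That order is not particular to these genes. Over all genes tested, 3182 were called in KO mice alone and 539 in WT mice alone, at an adjusted p under 0.1.

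**Figure D2:**
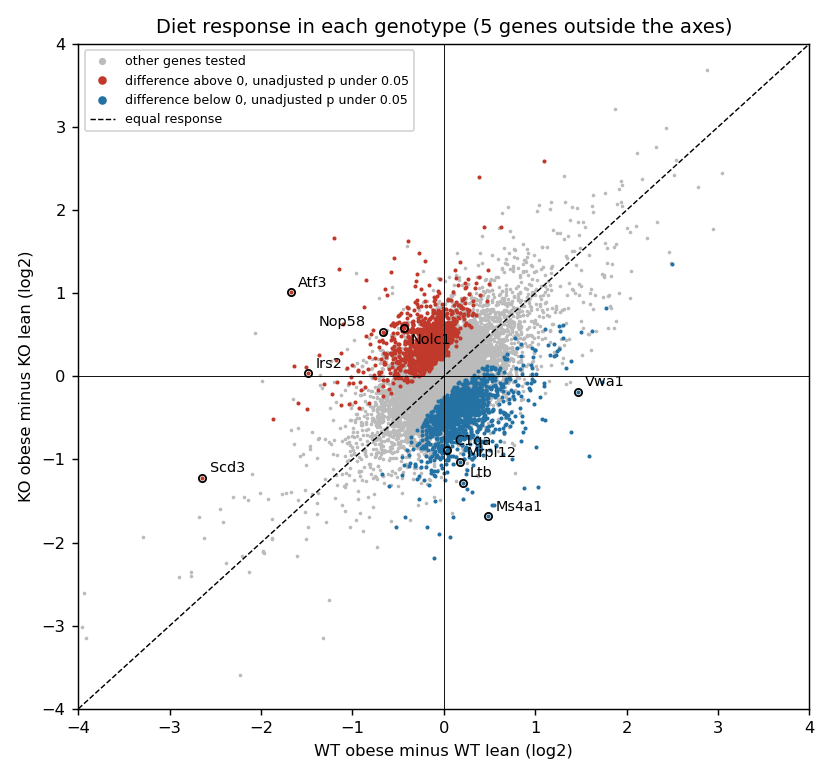
Diet effect of each of 13924 genes in WT mice (horizontal axis, WT obese minus WT lean, log2) and in KO mice (vertical axis, KO obese minus KO lean, log2). Red and blue genes have a positive or negative difference at an unadjusted p under 0.05 and the dashed line marks equal effects. Vwa1 lies far to the right of the line at 1.47 in WT mice, Nop58, Atf3 and Irs2 lie to its left, and 5 genes fall outside the axes.

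The same difference can be read as a genotype gap that is not alike on the 2 diets. KO lean and WT lean mice differed in 1040 genes higher (7.99%) and 1081 genes lower (8.31%) in KO, out of 13010 tested within the lean table. KO obese and WT obese mice differed in 1 gene higher (0.00707%) and 1 lower (0.00707%) of 14141, which were Wscd2 and Cmklr1. The lean count of 2121 depended on the mice as well: it was 3536 without KO lean mouse 20R, and it was 616 without 21L, 549 without 26R, 994 without 14RL, 1126 without 20-2L, 879 without 20L and 597 without 9L. The lean gap exceeded the obese gap in size for 1143 of 1207 positive genes and 1087 of 1177 negative genes that were tested in both tables, against 9370 of all 12991 genes. These gaps use the same 28 mice as the difference and are no separate evidence for it.

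The nucleolar genes of ribosome biogenesis had mostly positive differences. Of 60 members tested, 20 had a positive and 1 a negative difference at an unadjusted p under 0.05 (background 9.01% and 9.32%), none was called in limma over all 28 mice, and the median difference was 0.28. With the diet, 23 members rose and 2 fell in KO mice, while in WT mice 0 rose and 4 fell. Of all genes, 13.5% rose and 13.3% fell in KO mice, and 4.33% rose and 3.44% fell in WT mice. These shares are the background for the diet counts of all lists below. Their median transcript length, 3442 bases, was close to the 3306 bases of all genes tested, and after a correction for length and GC content 22 were positive and 1 negative. Under that correction 7.75% of all 13074 genes with a length were positive and 7.49% negative, and with the random block 4.04% of all genes were positive and 3.91% negative, which are the backgrounds for such counts below. With the random block 14 were positive and 1 negative at an unadjusted p under 0.05. Without KO lean mouse 20R, 16 were called positive and 1 negative, against 6.66% and 6.61% of all genes. That mouse was picked by the number of calls, so this count is a description.

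Nop58 is a core protein of the box C/D small nucleolar ribonucleoproteins that guide methylation of ribosomal RNA. It had 256, 307 and 440 normalized counts (lowest, median and highest) in WT lean and 152, 178 and 296 in WT obese mice, and 128, 233 and 260 in KO lean against 248, 317 and 371 in KO obese mice. The obese WT mice were mostly low and the obese KO mice mostly high, with a small overlap inside each genotype. Nop58 fell by 0.66 with the diet in WT mice (adjusted p = 0.0248) and rose by 0.54 in KO mice (adjusted p = 0.0323), and the difference was 1.20 (SE 0.25, adjusted p = 0.114 in limma).

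Nolc1, a nucleolar phosphoprotein that chaperones small nucleolar ribonucleoproteins, had 414, 597 and 864 normalized counts in WT lean and 292, 440 and 676 in WT obese mice. In KO lean mice it had 345, 400 and 538 and in KO obese mice 526, 584 and 760. Only 1 KO lean mouse entered the range of the KO obese mice, and the WT groups overlapped widely. The difference of Nolc1 was 1.02 (SE 0.24, adjusted p = 0.141).

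Gnl3 (nucleostemin), a nucleolar GTPase, ran from 320 to 499 in WT lean and from 193 to 375 in WT obese mice, and from 240 to 349 in KO lean against 283 to 653 in KO obese mice. It fell by 0.53 in WT (adjusted p = 0.0667) and rose by 0.41 in KO mice (adjusted p = 0.0826), with a difference of 0.94 (SE 0.24, adjusted p = 0.141). Ddx21, an RNA helicase of the nucleolus, and Mak16, a factor of the large ribosomal subunit, stand outside the list but ranked among the leading 15 positive genes. Ddx21 fell by 0.28 in WT and rose by 0.35 in KO mice (adjusted p = 0.0962 and 0.0155), and Mak16 fell by 0.37 and rose by 0.32 (adjusted p = 0.0606 and 0.0492).

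Promoters of nucleolar genes are shown because 23 of the 60 rose with the diet in KO mice, and those of the list were searched for 2 short motifs on both strands in RefSeq windows of GRCm38.p6, from 250 bases before to 50 after each start. The E-box CACGTG, the letters that MYC and USF factors are known to bind, was in 11 of 59 windows of the list (18.6%), in 9.56% of 13009 windows of genes tested and in 7.15% of all 32851 windows. The ETS letters CCGGAAGT were in 15 of the 59 windows (25.4%), in 7.26% of windows of genes tested and in 3.89% of all. Among 73 windows of mitochondrial ribosomal proteins, which had mainly negative differences, 9.59% held the E-box and 16.4% the ETS letters. The motifs do not overlap each other in the windows printed. A match says only that the letters are present. The 4 list members with the smallest p whose window holds either motif, a choice made after their values were seen, are printed 5′ to 3′ on the gene's strand with the motifs in capitals.

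Mdn1, chr4:32656869-32657168, plus strand: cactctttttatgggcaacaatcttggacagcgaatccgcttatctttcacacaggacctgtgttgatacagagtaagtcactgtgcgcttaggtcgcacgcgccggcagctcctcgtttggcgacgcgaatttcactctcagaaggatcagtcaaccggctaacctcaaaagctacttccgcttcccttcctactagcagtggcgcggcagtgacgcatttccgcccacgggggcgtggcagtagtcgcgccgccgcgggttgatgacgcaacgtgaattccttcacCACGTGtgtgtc

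Utp20, chr10:88826765-88827064, minus strand: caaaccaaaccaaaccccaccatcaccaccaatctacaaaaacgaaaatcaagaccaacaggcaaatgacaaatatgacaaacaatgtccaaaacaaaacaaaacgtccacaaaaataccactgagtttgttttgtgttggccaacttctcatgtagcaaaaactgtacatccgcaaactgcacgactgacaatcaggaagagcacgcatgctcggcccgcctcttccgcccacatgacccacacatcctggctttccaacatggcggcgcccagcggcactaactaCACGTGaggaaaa

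Gar1, chr3:129831347-129831646, minus strand: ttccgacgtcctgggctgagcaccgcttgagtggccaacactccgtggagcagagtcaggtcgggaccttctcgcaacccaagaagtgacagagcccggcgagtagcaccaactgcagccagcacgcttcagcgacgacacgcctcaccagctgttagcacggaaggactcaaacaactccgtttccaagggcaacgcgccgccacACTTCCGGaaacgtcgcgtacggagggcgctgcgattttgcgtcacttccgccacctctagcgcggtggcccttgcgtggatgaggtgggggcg

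Rrn3, chr16:13780449-13780748, plus strand: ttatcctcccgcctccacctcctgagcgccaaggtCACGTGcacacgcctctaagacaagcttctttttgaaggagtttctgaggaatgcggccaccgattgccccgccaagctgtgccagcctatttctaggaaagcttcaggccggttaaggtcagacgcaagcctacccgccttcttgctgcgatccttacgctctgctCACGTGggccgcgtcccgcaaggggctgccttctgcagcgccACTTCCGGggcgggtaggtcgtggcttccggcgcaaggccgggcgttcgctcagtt

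Mdn1 is the giant ATPase that remodels the large ribosomal precursor, and its E-box lies downstream of the start. Mdn1 rose by 0.70 in KO mice (adjusted p = 0.00528), with a WT effect of -0.21 (adjusted p = 0.525) and a difference of 0.90 (SE 0.23, adjusted p = 0.141) that became 0.45 after the length and GC correction. Utp20, of the small subunit processome, rose by 1.17 in KO mice (adjusted p = 0.000377) and its difference was 0.90 (SE 0.27). Gar1, of the box H/ACA particles that make pseudouridine, had an ETS match and a difference of 0.89 (SE 0.27). Rrn3, the initiation factor of RNA polymerase I, held the E-box at 2 places and the ETS letters at 1, and it fell by 0.48 in WT mice (adjusted p = 0.0267) with a KO effect of 0.10 (adjusted p = 0.623).

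Of 78 splicing factors tested, 24 had a positive and 4 a negative difference at an unadjusted p under 0.05. With the diet, 31 rose and 2 fell in KO mice (all genes 13.5% and 13.3%). In WT mice 0 rose and 1 fell (all genes 4.33% and 3.44%). The median difference was 0.22, and 0.23 after the length and GC correction. Prpf6, a component of the U5 particle, fell by 0.42 in WT mice (adjusted p = 0.0946) and had a difference of 0.67 (SE 0.20, adjusted p = 0.141). Ddx42, a helicase of the U2 particle, rose by 0.30 in KO mice (adjusted p = 0.0306) and had a difference of 0.47 (SE 0.14, adjusted p = 0.141).

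Lysine methyltransferases and demethylases, the enzymes that write and erase histone methylation, had 17 positive and 0 negative differences among 37 tested at an unadjusted p under 0.05, with a median of 0.43. In KO mice 12 rose and 0 fell with the diet, and in WT mice 0 were called. These transcripts are long, with a median of 6359 bases, and after the correction for length and GC content 10 were positive and the median was 0.22. Kdm6b, a demethylase of histone H3 lysine 27, had 790.5, 824 and 1394 normalized counts in WT lean against 435, 699 and 1123 in WT obese mice, and 319, 508 and 1014 in KO lean against 672, 844 and 1102 in KO obese mice. KO lean mice were the lowest group by median, though 1 of them was as high as the WT lean mice. Kdm6b rose by 0.65 in KO mice (adjusted p = 0.0259), and the difference was 1.09 (SE 0.28, adjusted p = 0.141). Whsc1l1 (Nsd3), a methyltransferase of H3 lysine 36, rose by 0.48 in KO mice (adjusted p = 0.0267) with a difference of 0.74 (SE 0.21).

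**Figure D3:**
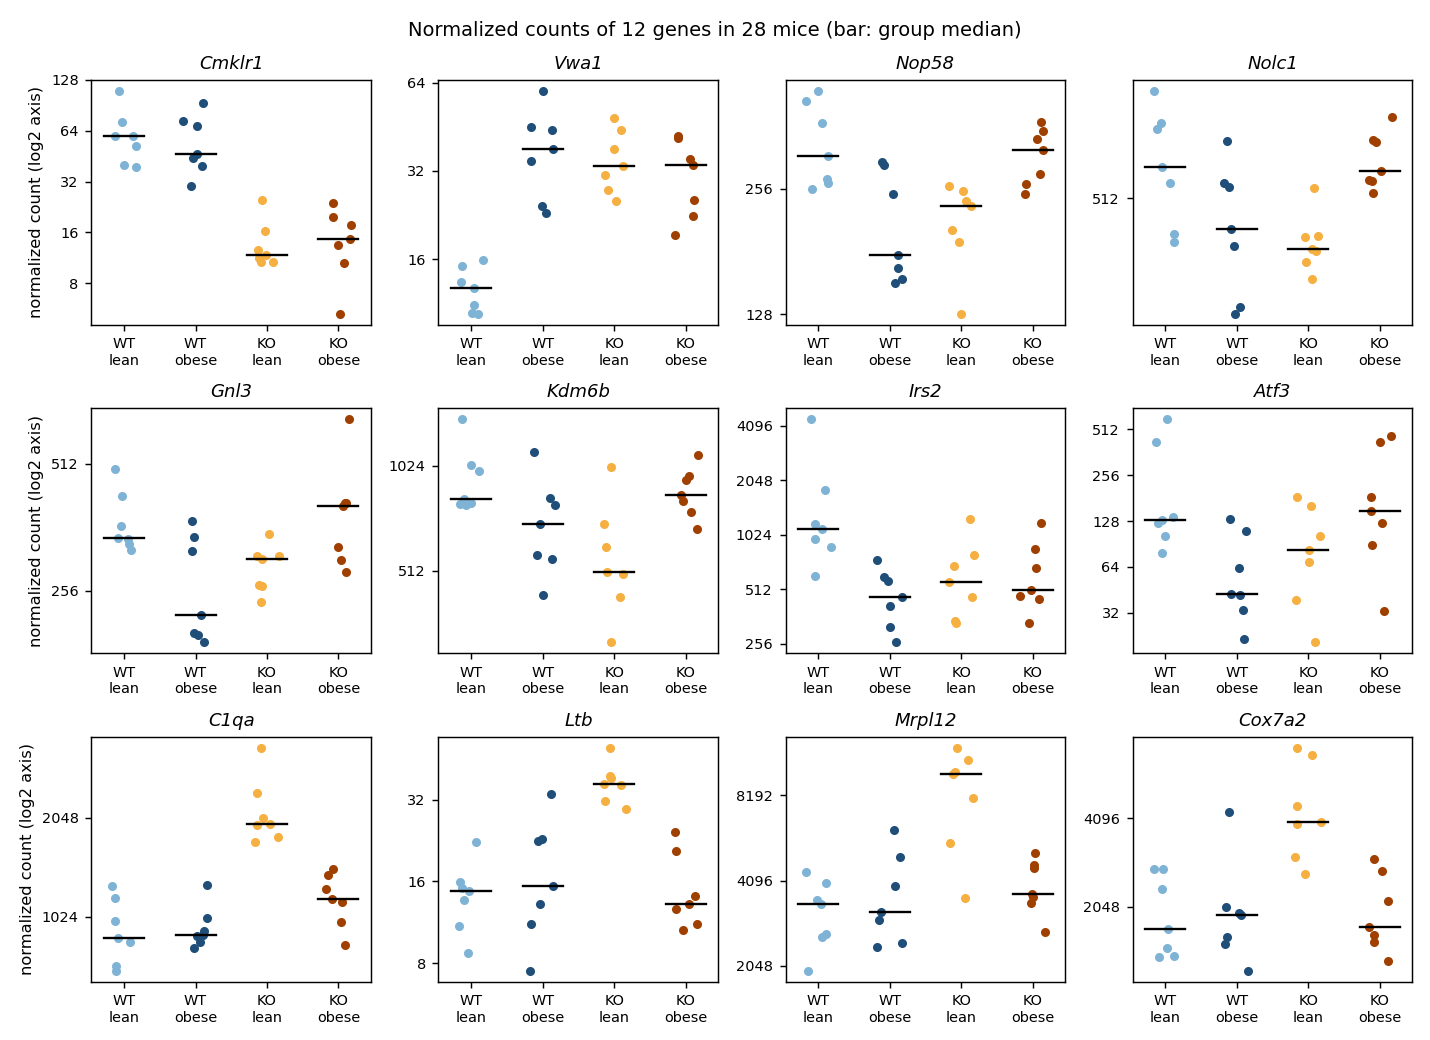
Normalized counts (vertical axis, log2 scale) of 12 genes in each of the 28 mice, by group, with the group median as a bar. Every KO mouse is below every WT mouse for Cmklr1, WT lean mice alone are low for Vwa1, and KO lean mice have the highest median for C1qa, Ltb, Mrpl12 and Cox7a2.

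Purb, a purine-rich element binding protein, had 1951, 2376 and 2622 normalized counts in WT lean and 1621, 1887 and 2206 in WT obese mice, and 1333, 1574 and 2262 in KO lean against 1913, 2332 and 2528 in KO obese mice. The groups overlapped in each genotype. Purb fell by 0.29 in WT mice (adjusted p = 0.0998) and rose by 0.41 in KO mice (adjusted p = 0.00830), with a difference of 0.70 (SE 0.14, adjusted p = 0.114). Aftph (aftiphilin, a clathrin trafficking protein), Arid4a (a retinoblastoma binding protein), Sash1 (a scaffold protein), Ppp3ca (the catalytic subunit of calcineurin) and Lats1 (a kinase of the Hippo pathway) each rose in KO mice, by 0.48, 0.39, 0.62, 0.82 and 0.33 (adjusted p from 0.000464 to 0.0137). None of these 5 was called in WT mice, and their differences were 0.66, 0.62, 0.96, 0.83 and 0.52 (adjusted p from 0.114 to 0.141), of which that of Lats1 became 0.31 after the length and GC correction.

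Genes of insulin signalling had 8 positive and 1 negative difference among 26 tested, with a median of 0.36, which became 4 and 1 and 0.22 after the length and GC correction. Irs2, the insulin receptor substrate that carries much of the hepatic insulin signal, had 609, 1098 and 4454 normalized counts in WT lean against 262, 466 and 745 in WT obese mice, and 333, 563 and 1246 in KO lean against 334, 506 and 1198 in KO obese mice. WT lean mice were the high group by median, the highest being mouse 19R, and their range overlapped that of both KO groups and of WT obese mice. Irs2 fell by 1.48 with the diet in WT mice (adjusted p = 0.0124), had a KO effect of 0.04 (adjusted p = 0.952) and a difference of 1.52 (SE 0.49, adjusted p = 0.141). Irs1 fell by 0.97 in WT mice (adjusted p = 0.000696) against a KO effect of -0.30 (adjusted p = 0.193). Its difference was 0.67 (SE 0.23, adjusted p = 0.149), and after the length and GC correction 0.36 (unadjusted p = 0.130 in limma). Insr, the insulin receptor, named after its values were seen, rose by 0.33 in KO mice (adjusted p = 0.0530) and had a WT effect of -0.12 (adjusted p = 0.645). Its difference of 0.45 became 0.18 after the correction.

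Immediate early genes, which respond within minutes to growth and stress signals, had the highest median difference of the pathway lists at 0.78, with 22 of 23 values above 0. Of these members 5 were positive and 0 negative at an unadjusted p under 0.05. Their spread between mice was wide, and 2 fell in WT and 1 rose in KO mice with the diet. Atf3, a stress-induced transcription factor, ran from 78.7 to 597 normalized counts in WT lean (median 130) and from 21.6 to 133 in WT obese mice (median 42.4). In KO lean mice it ran from 20.545 to 183 (median 82.3) and in KO obese mice from 32.9 to 466 (median 149). Atf3 fell by 1.67 in WT mice (adjusted p = 0.0780), while the KO effect of 1.01 was not called (adjusted p = 0.197), and the difference was 2.69 (SE 0.78, adjusted p = 0.141). Fosl2, a Fos-related factor, had a difference of 1.71 (SE 0.55, adjusted p = 0.141), and its highest value, 3090, was again in WT lean mouse 19R.

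Of 24 genes of de novo lipogenesis, 4 had a positive and 0 a negative difference at an unadjusted p under 0.05, and the median was 0.38. With the random block 1 was positive and 0 negative, a share near the 4.04% of all genes. Acaca, the acetyl-CoA carboxylase that commits carbon to fatty acid synthesis, had medians of 2249 in WT lean against 1312 in WT obese mice, and 1200 in KO lean against 1247 in KO obese mice. Its difference was 0.86 (SE 0.30, adjusted p = 0.149), or 0.55 after the length and GC correction, and neither diet effect was called (WT -0.58, adjusted p = 0.111). Fasn, fatty acid synthase, had a difference of 1.16 (SE 0.51, adjusted p = 0.225), or 0.77 after that correction, and its highest value, 14807, was in KO obese mice. Of 21 genes that desaturate and elongate fatty acids, 12 fell in WT and 11 fell in KO mice, none rose, and the median effects were -0.99 and -0.72. Scd3, a stearoyl-CoA desaturase whose reads may be shared with its close paralogs, fell by 2.64 in WT (adjusted p = 0.000696) and by 1.22 in KO mice (adjusted p = 0.0533), with a difference of 1.42 (SE 0.63, adjusted p = 0.224).

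Clock genes had 4 positive and 0 negative differences among 21 tested at an unadjusted p under 0.05. Bhlhe40, a repressor of the clock loop, rose by 1.23 in KO mice (adjusted p = 0.0177) with a WT effect of -0.30 (adjusted p = 0.706) and a difference of 1.52 (SE 0.50, adjusted p = 0.143). Rora, an activator of Bmal1 transcription, had a difference of 0.60 (SE 0.23, adjusted p = 0.175), and after the length and GC correction 0.37 (unadjusted p = 0.125 in limma). Glul, glutamine synthetase of the pericentral hepatocytes, rose by 0.86 in KO mice (adjusted p = 0.00306) with a WT effect of 0.12 (adjusted p = 0.791), and its difference was 0.74 (SE 0.26, adjusted p = 0.153).

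Among the gene lists, markers of Kupffer cells and lymphocytes had the lowest median differences of the lists with more than 6 members. Of 18 Kupffer cell markers tested, 9 had a negative and 1 a positive difference at an unadjusted p under 0.05 (background 9.32% and 9.01%), and the median was -0.52. With the diet, 11 fell and 0 rose in KO mice (all genes 13.3% and 13.5%). In WT mice 1 fell and 0 rose (all genes 3.44% and 4.33%). The summed normalized count of the markers ran from 10583 to 17734 in WT lean against 12307 to 16353 in WT obese mice, and 20458 to 34673 in KO lean against 15609 to 19015 in KO obese mice. Every KO lean mouse was thus above every other mouse in this sum, in which Slc40a1 had the highest mean count. The WT and KO values were normalized separately, so this order is a description. After the length and GC correction the counts were again 9 and 1. None was called in limma over all 28 mice. Without KO lean mouse 20R, 8 were called negative, against 6.61% of all genes. That mouse was picked by the number of calls, so this count is a description. In whole liver, fewer cells of a type and less RNA per cell cannot be told apart.

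C1qa encodes a chain of C1q, the complement starter made by macrophages, and spans 136895917 to 136898803 of chromosome 4 (GRCm38, minus strand). It had 702, 881 and 1270 normalized counts in WT lean against 824, 900 and 1278 in WT obese mice, and 1732, 1962 and 3340 in KO lean against 838, 1160 and 1434 in KO obese mice. No KO lean mouse overlapped any other group. C1qa fell by 0.89 with the diet in KO mice (adjusted p = 0.000521) and had a WT effect of 0.04 (adjusted p = 0.927). Its difference of -0.92 (SE 0.21, adjusted p = 0.139) became -0.65 after the length and GC correction.

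C1qb had the same order, and its difference of -1.06 (SE 0.27, adjusted p = 0.141) became -0.80 after the length and GC correction. Its ranges were 513 to 1073, 621 to 984, 1408 to 3644 and 694 to 1186 in WT lean, WT obese, KO lean and KO obese mice. Clec4f, a lectin found in mice on Kupffer cells and named after its values were seen, had medians of 1390, 1350, 2823 and 1712 in the same order. It fell by 0.97 in KO mice (adjusted p = 0.00219) with a WT effect of -0.02 (adjusted p = 0.971). Cfp, properdin, the stabilizer of the alternative complement pathway, fell by 0.91 in KO mice (adjusted p = 0.000626) with a WT effect of -0.03. Wfdc17, a secreted macrophage protein, fell by 1.4994 in KO mice (adjusted p = 0.000245) with a WT effect of -0.09. Aif1, a macrophage actin-bundling protein, fell by 0.91 in KO mice (adjusted p = 0.0203). Its difference was -1.19 (SE 0.38), or -0.92 after the length and GC correction.

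Of 17 T and NK cell markers, 8 had a negative and 0 a positive difference at an unadjusted p under 0.05 with a median of -0.82, and of 11 B cell markers 4 were negative, 0 positive and the median was -0.83. With the diet, 7 T and NK cell markers and 5 B cell markers fell in KO mice, and 1 T and NK cell marker rose in WT mice. The summed T and NK cell markers ran from 311 to 621 in WT lean against 447 to 1099 in WT obese mice, and 630 to 1547 in KO lean against 400 to 756 in KO obese mice, and those of B cells from 78 to 172, 68 to 212, 138 to 293 and 64 to 163. Both sums were highest in KO lean mice by range but overlapped other groups, and 2 B cell and 3 T and NK cell markers were at 0 in at least 1 mouse. The median differences after the length and GC correction were -0.62 and -0.74.

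Ltb (lymphotoxin beta, a lymphocyte cytokine) had 8.69, 14.8 and 22.3 normalized counts in WT lean against 7.503, 15.5 and 33.8 in WT obese mice, and 29.6, 36.7 and 49.8 in KO lean against 10.6, 13.2 and 24.5 in KO obese mice. It fell by 1.28 in KO mice (adjusted p = 0.00167), had a WT effect of 0.21 (adjusted p = 0.713) and a difference of -1.49 (SE 0.36, adjusted p = 0.141). The KO groups did not overlap. Klrk1 (NKG2D, an activating receptor of NK and CD8 T cells) fell by 0.84 in KO mice (adjusted p = 0.00904) with a difference of -1.24 (SE 0.30). Ms4a1 (CD20), a surface protein of B cells, fell by 1.68 in KO mice (adjusted p = 0.00903) at low counts, its highest value being 41.3.

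Monocyte markers had 6 negative and 0 positive differences among 20, with a median of -0.47 that became -0.28 with 3 negative after the length and GC correction. Hepatocyte markers had 0 in either direction among 19 with a median of 0.02, and Alb, the most abundant of them and named after its values were seen, had a difference of 0.31 (SE 0.30, adjusted p = 0.618). Neutrophil markers had 0 of 7 in either direction, all 7 values lay above 0 and their median was 0.84, with summed counts from 57 to 1254 over all mice. Sinusoidal endothelial markers had 1 negative and 0 positive of 24, although 11 fell in KO and 3 in WT mice, and stellate cell markers had 2 positive and 0 negative of 18, both lists with a median of 0.00. Drug metabolizing P450 enzymes had 0 of 31 in either direction, although 7 rose and 3 fell in WT mice and 9 rose and 6 fell in KO mice with the diet. Among 11 tested ligands and receptors linked to ChemR23, Fpr2, a formyl peptide receptor, was the sole member past an unadjusted p of 0.05. Its difference was -0.93 (SE 0.37, adjusted p = 0.182), and it fell by 0.91 in KO mice (adjusted p = 0.0162). After the length and GC correction the difference was -0.61 (unadjusted p = 0.111 in limma), and with the random block the unadjusted p was 0.0607.

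**Figure D4:**
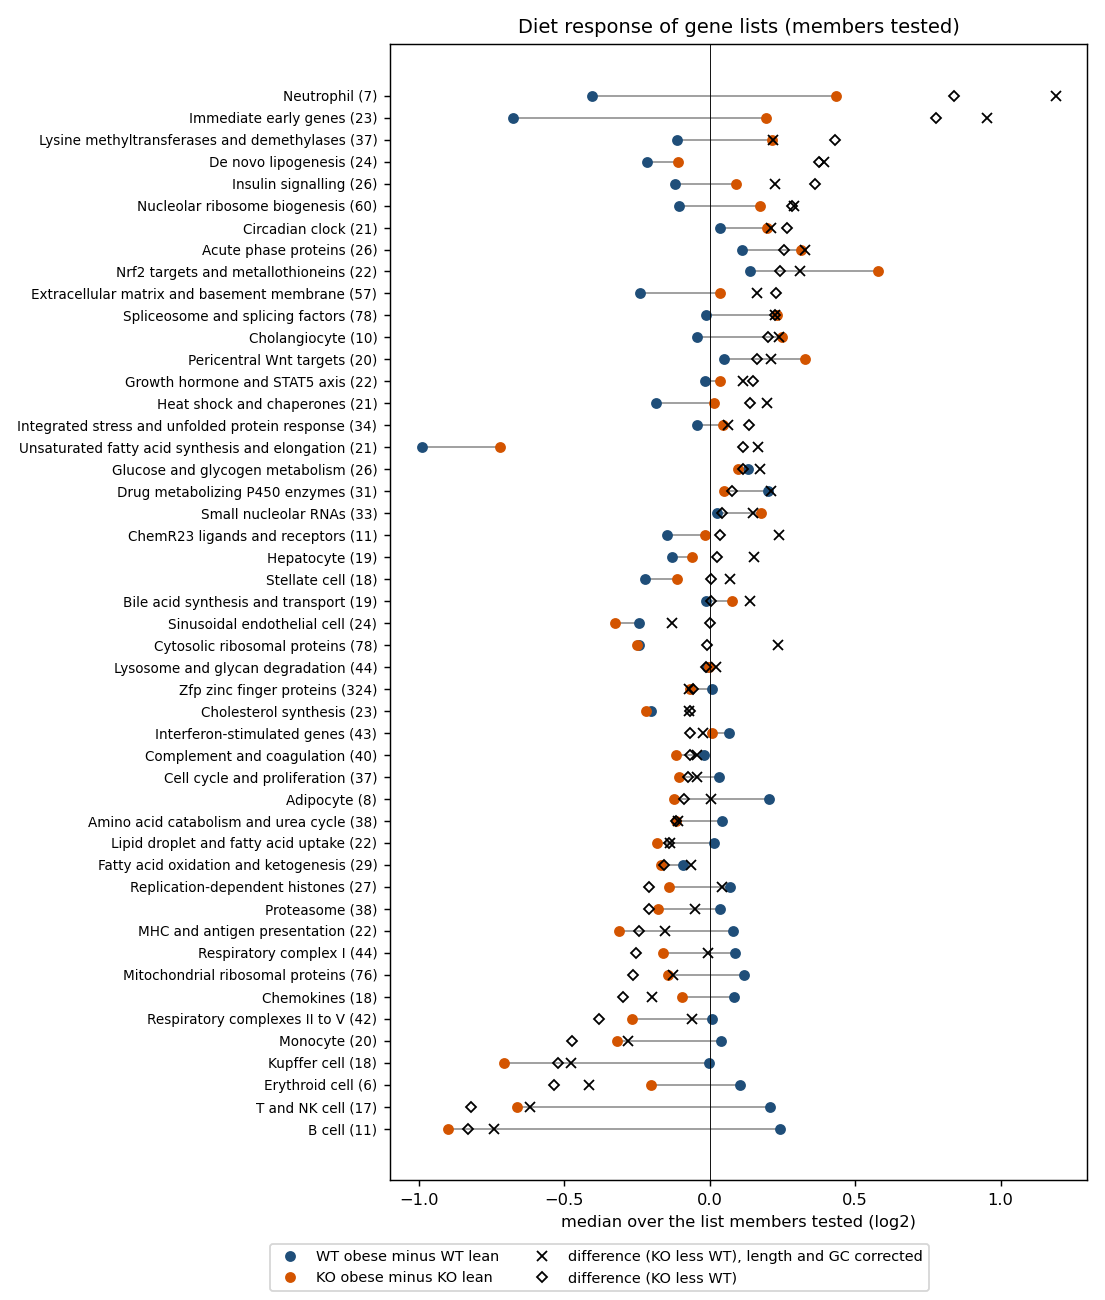
Median diet effect of each gene list in WT mice (blue points) and KO mice (orange points), and median diet by genotype difference before (diamond) and after (cross) correction for length and GC content, all on the log2 scale. The number of members tested stands beside each list, and lists of under 6 members are left out. Immediate early, lysine methylation and nucleolar genes lie above 0 for the difference and B cell, T and NK cell and Kupffer cell markers below 0, while the respiratory complexes move to near 0 once corrected.

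Mitochondria make the proteins that their own genome encodes on ribosomes of their own, whose proteins are encoded in the nucleus. Of 76 mitochondrial ribosomal proteins, 28 were negative and 0 positive at an unadjusted p under 0.05 with a median of -0.26. With the diet, 24 fell and 3 rose in KO mice and 0 were called in WT mice. After the length and GC correction 21 were negative and 2 positive, with a median of -0.13, and with the random block 11 were negative and 0 positive. Mrpl12, a protein of the large mitochondrial subunit, had 1967, 3388 and 4405 normalized counts in WT lean against 2387, 3164 and 6179 in WT obese mice, and 3555, 9747 and 12077 in KO lean against 2704, 3664 and 5140 in KO obese mice. KO lean mice were the high group, but mouse 20R, which held the 3555, lay inside the range of the other groups and mouse 14-2L at 5562 was below the highest WT obese mouse. Mrpl12 fell by 1.04 in KO mice (adjusted p = 0.00539), with a WT effect of 0.18 (adjusted p = 0.754) and a difference of -1.21 (SE 0.34, adjusted p = 0.141). Mrpl41 fell by 0.84 in KO mice (adjusted p = 0.0203) with a difference of -1.23 (SE 0.35).

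Complex I and its assembly factors had 11 negative and 0 positive differences among 44, with a median of -0.25, and complexes II to V had 12 negative and 1 positive among 42, with a median of -0.38. Their median transcript lengths were 1216 and 1232 bases, well under that of all genes, and after the correction they stood at 7 negative and 4 positive with a median of -0.01 and at 5 negative and 3 positive with a median of -0.06. Cox7a2, a subunit of cytochrome c oxidase, had medians of 1718, 1918, 3993 and 1746 in WT lean, WT obese, KO lean and KO obese mice. It fell by 1.15 in KO mice (adjusted p = 0.00333), and its difference of -1.18 (SE 0.35, adjusted p = 0.141) became -0.89 after the correction. Cyc1 (cytochrome c1) and Ndufs4 (a subunit of complex I) fell by 0.69 and 0.71 in KO mice (adjusted p = 0.00907 and 0.0185).

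Cytosolic ribosomal proteins were divided, 8 positive and 9 negative of 78, and after the correction 27 were positive and 6 negative, so no direction is given for them. Proteasome subunits went from 11 negative and 1 positive of 38 to 5 and 5. Psmb9, the interferon-induced subunit that enters the immunoproteasome, rose by 0.71 in WT mice (adjusted p = 0.0723), had a KO effect of -0.32 (adjusted p = 0.346) and a difference of -1.04 (SE 0.33, adjusted p = 0.141). Zfp zinc finger proteins were 33 positive and 32 negative of 324, near the background, but 22 positive and 41 negative after the length and GC correction. Zfp444 and Zfp960 were among the 15 leading negative genes at -0.81 (SE 0.19) and -1.40 (SE 0.32). Zscan2, a related zinc finger gene, fell by 0.73 in KO mice (adjusted p = 0.00160) and had a difference of -0.99 (SE 0.20, adjusted p = 0.114).

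The difference moved with transcript length, whose part in each result was not tested beyond the correction given beside it. When the 13074 genes of known length were divided into 5 bins of about equal number, the bin of 65 to 1898 bases had a median difference of -0.22, with 38 genes positive and 500 negative at an unadjusted p under 0.05. The bin of 5189 bases and longer had a median of 0.23, with 584 positive and 39 negative. The medians of the bins after correction lay between -0.01 and 0.01. In KO mice the diet effect ran from -0.16 in the shortest to 0.19 in the longest bin, and in WT mice from 0.05 to -0.06. In single mice the rank correlation over genes of length with the deviation from the overall mean ran from -0.43 to 0.09 in KO lean (median -0.21), from -0.14 to 0.33 in KO obese, from -0.10 to 0.22 in WT lean and from -0.20 to 0.23 in WT obese mice. Mouse 20R had the highest of these values in KO lean, 0.09, and the genes of a mouse share its library.

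**Figure D5:**
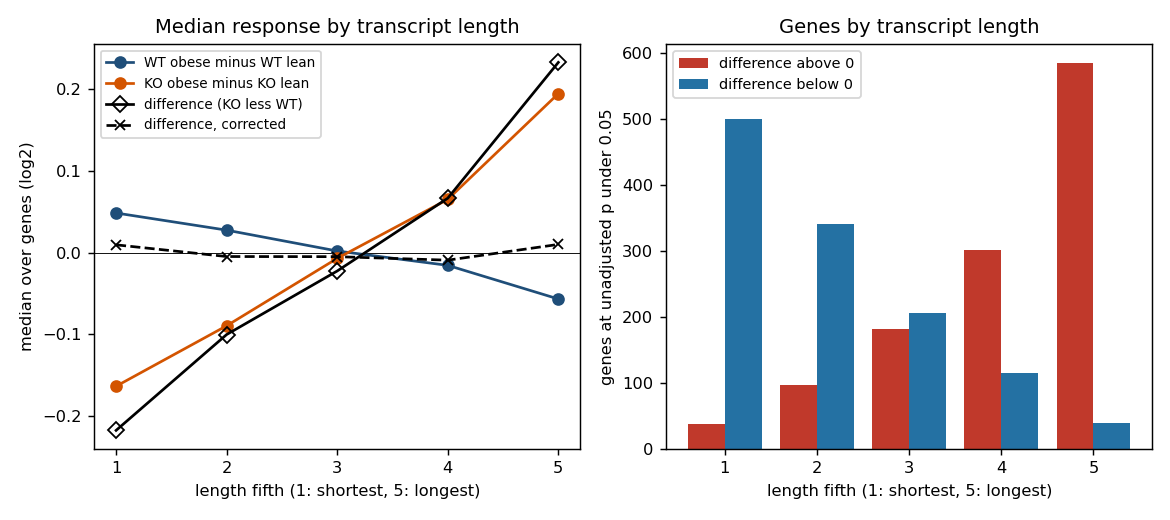
Left, median over genes (log2) of the diet effect in WT mice, in KO mice and of their difference, by transcript length bin (1 shortest, 5 longest). Right, number of genes with a positive or negative difference at an unadjusted p under 0.05 in each bin. The difference runs from -0.22 in the shortest to 0.23 in the longest bin and lies near 0 in all 5 once corrected.

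Some further named genes had a diet effect called in WT and none called in KO mice. Dcxr, the dicarbonyl and L-xylulose reductase, had 416, 546 and 572 normalized counts in WT lean against 714, 986 and 1106 in WT obese mice, and 669, 810 and 1309 in KO lean against 771.5, 821 and 1109 in KO obese mice. No WT lean mouse reached the lowest value of any other group. Dcxr rose by 0.85 in WT mice (adjusted p = 0.000472), had a KO effect of 0.03 (adjusted p = 0.892) and a difference of -0.82 (SE 0.19, adjusted p = 0.139) that became -0.52 after the length and GC correction. Ankrd2, an ankyrin repeat gene of muscle counted at 1.06 to 19.3 here, rose by 1.73 in WT mice (adjusted p = 0.000868) with a difference of -1.80 (SE 0.42, adjusted p = 0.139). Engase, a cytosolic glycosidase, and Ndufa4l2, a hypoxia-responsive relative of a cytochrome c oxidase subunit, rose by 0.71 and 0.96 in WT mice (adjusted p = 0.00603 and 0.00560), with KO effects of -0.01 and 0.03.

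Maf1, the repressor of RNA polymerase III, fell by 0.70 in KO mice (adjusted p = 0.000144) with a WT effect of -0.09 (adjusted p = 0.672). It had 378.5, 408 and 494 normalized counts in WT lean against 354, 367 and 518 in WT obese mice, and 534, 649 and 749 in KO lean against 338, 411 and 450 in KO obese mice, so that no KO lean mouse overlapped any other group. Its difference was -0.61 (SE 0.14, adjusted p = 0.139), and -0.42 after the length and GC correction. Cyb561d2, a transmembrane reductase of the cytochrome b561 family, fell by 0.67 in KO mice (adjusted p = 0.00157) and had a difference of -0.88 (SE 0.19, adjusted p = 0.114).

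The remaining lists lay nearer the background or had few members past an unadjusted p of 0.05. Targets of Nrf2 (the regulator of antioxidant genes) and metallothioneins had 2 positive and 0 negative differences among 22, while 6 rose in WT and 12 rose in KO mice and 0 fell in either. Fatty acid oxidation genes had 4 negative and 0 positive of 29, interferon-stimulated genes 5 and 0 of 43, lipid droplet and fatty acid uptake genes 3 and 0 of 22, and complement and coagulation genes 5 negative and 2 positive of 40. Extracellular matrix genes had 8 positive and 1 negative of 57, the negative one being Vwa1, and 2 positive and 1 negative after the length and GC correction and 1 and 1 with the random block. Cholesterol synthesis had 1 negative and 0 positive of 23, bile acid synthesis and transport 1 positive and 0 negative of 19, and the growth hormone axis 1 positive and 0 negative of 22.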

How the data were processed

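Per the labels and the study's methods, whole livers gave stranded total RNA libraries (1 label names polyA RNA), sequenced as pairs, aligned to mm10 with Bowtie2 and counted with featureCounts. Annotation, tool versions and strand setting: not given in the sources used here, so overlapping and antisense genes cannot be told apart. The deposited signal values are counts divided by DESeq2 size factors, 1 set per table of 14 libraries; the authors' own fold changes and p-values in those tables were not used. All 424172 values (100%) were whole reads within 0.1 reads. Genes with date-like names (22 per table) were left out. Replicates are mice, 7 per group, under 4 opening numbers in WT lean and 3 in each of WT obese, KO lean and KO obese. The random block gave a correlation of 0.25 between mice of the same number. The smallest chi-square per gene between mice of a group was 40.7.

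Log2(normalized count + 1) was fitted with limma (3.58.1, R 4.3.3, lmFit and eBayes with trend, two-sided) as a 4-group model, with BH adjustment over all genes. KO and WT mice of the same diet were compared within their own tables. A test on simulated data was run first. Alternatives were pseudocounts of 0.5 and 4, no filter, a mean of at least 20, TMM, equal totals, the genotype tables, a loess correction (span 0.3) for length and GC content from GENCODE M21, quality weights, a random block, robust eBayes, edgeR (4.0.16), DESeq2 (1.42.0), and leaving out mice. Named genes were those called, the 15 with the smallest p in each direction, the 2 of each list with the smallest p, those called by edgeR (5 per direction), the targeted gene and its neighbour, and any others where said. The members and lists were chosen with earlier results of these data known. Where ranges of genes named by their p do not overlap, this is a description, and the share of all genes without overlap is not given. Lists have no set test: their counts stand beside those of all genes. Not every gene this rule gives is printed, and an item withheld from the text is not reported here.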

Additional observations from a re-analysis of the deposited data

Results flagged for a closer look

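In limma over all 28 mice the diet by genotype difference of Vwa1 was called, at -1.65 on the log2 scale (adjusted p = 0.0803). It was not called with the larger pseudocount, equal totals, the length and GC correction or the random block. With the random block in limma its adjusted p was 0.603. With a single mouse left out it was called in 12 of 28 fits. Within groups of 7 mice, the leading genes and the targeted gene gave 31 genes and 124 groups, and 2 of these groups held a mouse whose gap to its neighbour exceeded Dixon's critical value, while about 1 in 20 groups is expected to by chance. Arid4a was low in WT obese mouse 6RL, at 351.6 normalized counts against 407 in the nearest mouse. Cyb561d2 was high in WT lean mouse 19R, at 219 against 167. Leaving out either mouse kept the sign of both genes' differences.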

How the results depend on the processing

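Calls for the difference fell from 1 to 0 with a pseudocount of 4, equal totals, the length and GC correction, the random block and an adjusted p under 0.05, and rose to 7 with a mean of at least 20 and with the genotype tables, 926 with DESeq2, 2563 with quality weights and 2597 without mice 20R and 22L (chosen after seeing the data). Leaving out 1 mouse gave 0 to 1848, and 1 mouse number 0 to 963. Genes at an unadjusted p under 0.05 (2553) went to 3837 with weights, 1107 with the block, 3855 without both mice, 2045 to 3354 without 1 mouse and 1828 to 3097 without 1 number. WT diet calls (1082) became 674 at equal totals, 1966 with weights, 410 with the block, 1669 without both mice, 723 to 1472 without 1 mouse and 539 to 1549 by number. KO diet calls (3725) became 5864 with weights, 1415 with the block, 2746 to 4554 without 1 mouse and 1547 to 4065 by number. Lean genotype calls ran from 549 to 3536 without 1 mouse, and obese ones from 1 to 2, with 1 at a mean of at least 20. The difference of Cmklr1 turned to -0.11 without number 10, -0.05 without 21 and -0.11 without 27, and ran up to 0.3926 when 1 mouse or number was left out. Of 58 genes named, no other changed sign under these alternatives. The cause of these shifts was not tested. Depth limits genes of few reads such as Ankrd2 and Ms4a1. No paired analysis was possible because no replicate or mouse number is shared by design between the 4 groups used.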
